A study of Mus musculus with 5 samples.

Results

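Ubd, which encodes the ubiquitin-like modifier FAT10, was compared with the genes of the immunoproteasome and of MHC class I antigen processing in 5 mouse embryonic stem cell (ESC) lines. The genes were Ubd, Psmb8, Psmb9, Psmb10, Psme1, Psme2, Tap1, Tap2, Tapbp and B2m. All non-control probes carrying one of these 10 names on the array were taken. Of the 10 genes, 9 had such a probe, and they were represented by 13 of 41174 probes. All 13 passed the filter on dim probes, which kept 28972 probes. Ubd was selected on its measured difference between the genotypes, so its values are described without a test. The question was whether any of the antigen-processing genes followed Ubd from line to line.

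Wild-type ESCs were RF8, the parental line, labelled male and of 129sv origin, and #620-2, labelled female and of C57BL6/129sv origin. ECAT11 EGFP/EGFP ESCs were #620-6, labelled female, and #757-1 and #757-2, labelled male, all of C57BL6/129sv origin. In these knock-in lines, an EGFP-IRES-Puro cassette took the place of the ECAT11 coding sequence on both alleles. Apart from RF8, the lines came from blastocysts of crosses between heterozygous mice. Each line is a single clone measured on 1 array, cultured with serum and LIF on gelatin. Slide 1 held RF8, #620-2 and #620-6, and slide 2 held #757-1 and #757-2. The lines are the replicates of a genotype, 2 wild type and 3 knock-in, and their number limits the precision. The names pair #620-2 with #620-6 and #757-1 with #757-2, but whether lines of 1 number share a litter is not given in the sources used here, and the tests treat all lines as independent. RF8 was also the only line that was not of mixed origin, so strain, derivation and clone cannot be told apart in it.

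FAT10 is attached to proteins and targets them to the proteasome, and interferon gamma and TNF induce it. Interferon gamma also induces Psmb8, Psmb9 and Psmb10, the catalytic subunits that replace Psmb5, Psmb6 and Psmb7 in the immunoproteasome. Psme1 and Psme2 form the PA28 activator, which caps the proteasome. Tap1 and Tap2 carry peptides into the endoplasmic reticulum, tapasin (Tapbp) helps to load them onto class I molecules, and B2m is the light chain of these molecules. Class I molecules are known to be scarce on undifferentiated ESCs.

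The Ubd probe lies at chr17:35348129-35348188 (mouse genome build mm7, as in the scanner files). Its first 30 bases are shown because the comparison starts from this single probe. The promoters of Ubd, Psmb8 and B2m are shown because they were the members whose 250 bases before the transcription start held a match to a cytokine-response motif. The promoters are RefSeq sequences of build GRCm38.p6, another build than that of the probes. Capitals mark the matches.
Ubd probe, first 30 bases: agccgatttcctctgagctattaccaatca
Ubd promoter, chr17:37193642-37193891, plus strand: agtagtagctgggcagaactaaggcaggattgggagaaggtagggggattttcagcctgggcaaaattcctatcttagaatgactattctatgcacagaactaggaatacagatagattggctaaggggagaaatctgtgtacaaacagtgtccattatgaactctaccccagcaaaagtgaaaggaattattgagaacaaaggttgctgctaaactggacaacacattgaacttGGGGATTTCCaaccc
Psmb8 promoter, chr17:34197945-34198194, plus strand: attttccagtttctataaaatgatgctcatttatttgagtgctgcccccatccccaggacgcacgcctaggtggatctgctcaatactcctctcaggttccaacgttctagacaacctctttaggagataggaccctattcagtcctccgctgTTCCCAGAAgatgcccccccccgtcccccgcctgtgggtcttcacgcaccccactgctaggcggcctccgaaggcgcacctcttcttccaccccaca
B2m promoter, chr2:122147437-122147686, plus strand: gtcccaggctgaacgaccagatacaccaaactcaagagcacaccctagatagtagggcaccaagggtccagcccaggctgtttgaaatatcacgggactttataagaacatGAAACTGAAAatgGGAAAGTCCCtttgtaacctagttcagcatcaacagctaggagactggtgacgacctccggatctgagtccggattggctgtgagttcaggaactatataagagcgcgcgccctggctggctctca

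Both strands were searched for the core of the interferon-stimulated response element, GAAANNGAAA, for the gamma-activated site, TTCNNNGAA, and for the NF-kB consensus. The Ubd promoter held an NF-kB match 15 bases before the start. The Psmb8 promoter held a gamma-activated site 97 bases before the start. The B2m promoter held a response element core at 139 bases and an NF-kB match at 126 bases. The promoters of Psmb9, Psmb10, Psme1, Psme2, Tap1 and Tapbp held none of these letters in this window. The promoter of Tap2 was not analysed here. Of 32851 mouse promoters of this length, 2.98% held the response element core, 7.02% the gamma-activated site and 7.25% the NF-kB consensus. A match describes the letters and no binding.

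Values are log2 signals of a probe relative to the 75th percentile of its array, so that 0 is that percentile, and levels are compared between lines and not between probes. The 7 ESC markers were well above background in all 5 lines, with a summed level between 318.4 and 427.5 times the 75th percentile. Dppa5a, the brightest at 8.07 to 8.43, weighed most in this sum, which hides differences in the dimmer markers. Nanog measured 2.54 in RF8, 3.96 in #620-2, 4.54 in #620-6, 3.44 in #757-1 and 3.71 in #757-2. Esrrb, Sox2 and Dppa5a were also lowest in RF8, whereas Tdgf1, Pou5f1 and Utf1 were not. Of 8 fibroblast markers, 6 to 8 were well above background, and their summed level reached 15.8 in RF8, against 9.16 in #620-2, 8.50 in #620-6, 2.35 in #757-1 and 4.56 in #757-2. Col1a1 and Col1a2, at 2.98 and 2.52 in RF8, weighed most in the sum of RF8. Fbn1, Pdgfrb and Postn were also highest in RF8, but Thy1, Col3a1 and Lox were highest in the #620 lines. Of 10 blood cell markers, 4 to 7 were well above background, with a summed level between 1.36 and 3.15. Of the defining markers, H2-Aa and Itgax were not well above background in any line, and Ptprc was so in #757-1 alone, at -1.55. On slide 1, 26359 to 27128 probes had signals well above background, against 21236 to 22039 on slide 2. In these bulk samples, fewer cells of a type and less RNA per cell cannot be told apart.

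Ubd was measured in the knock-in ESCs and not in the wild-type ESCs. Its level was -8.12 in RF8 and -8.06 in #620-2, neither of them well above background. It was 0.46 in #620-6, 1.25 in #757-1 and 1.06 in #757-2. All 3 knock-in lines lay above both wild-type lines, within slide 1 and across the slides. The knock-in mean was 0.92 ± 0.41 (SD, n = 3). The lowest signal well above background was -5.99 in RF8 and -5.91 in #620-2. Set against these limits, the knock-in mean was at least 117-fold higher. Within its array, the probe stood at percentile 15.9 in RF8, 15.2 in #620-2, 78.1 in #620-6, 83 in #757-1 and 81.9 in #757-2. Among 28898 probes with a value on every array, 13 (0.045%) were well above background in all 3 knock-in lines and in neither wild-type line. No other member was among them. The next bound after that of Ubd was 8.92-fold, for Igll1, a component of the pre-B cell receptor.

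**Figure D1:**
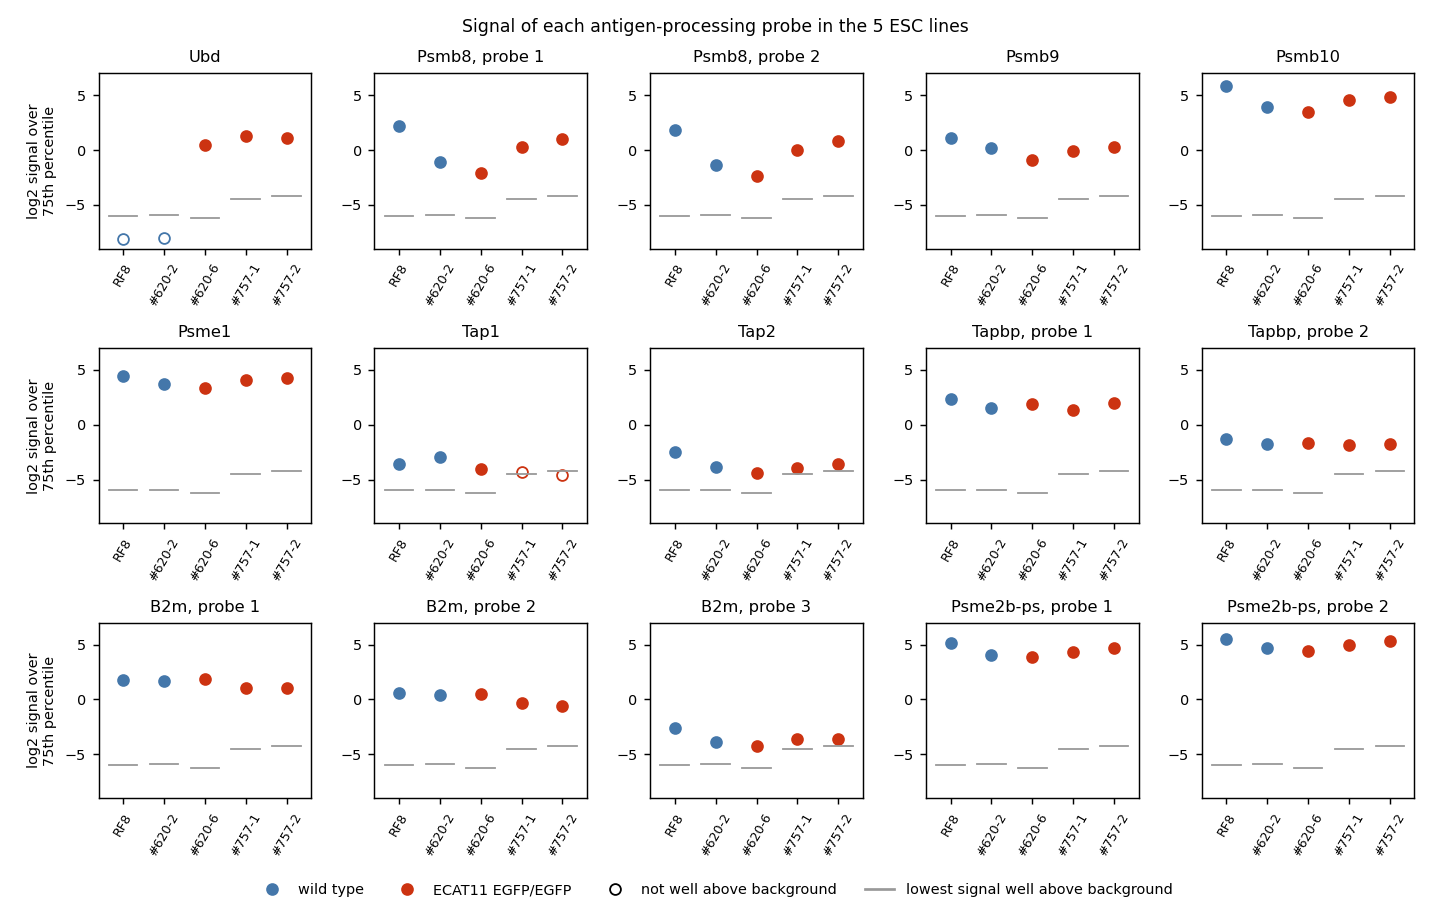
Log2 signal over the 75th percentile of the array (y axis) of each probe in the 5 ESC lines (x axis), with blue for wild type, red for ECAT11 EGFP/EGFP, open circles for signals not well above background and grey bars for the lowest signal well above background on each array. Ubd lies at -8.12 and -8.06 in the wild-type lines and between 0.46 and 1.25 in the knock-in lines, whereas Psmb8 is highest in RF8, at 2.19.

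None of the catalytic subunits of the immunoproteasome followed Ubd. Psmb8 had 2 probes, at chr17:32280668-32280727 and, with a position spanning 325 bases, chr17:32280725-32281049. The latter, the brighter one, measured 2.19 in RF8, -1.08 in #620-2, -2.14 in #620-6, 0.24 in #757-1 and 1.01 in #757-2. RF8 was the highest line, and #620-6, a knock-in line in which Ubd was well above background, was the lowest, with a 20.0-fold range. The dimmer probe ranked the lines alike, at 1.86, -1.39, -2.37, 0.04 and 0.83 in RF8, #620-2, #620-6, #757-1 and #757-2.

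Psmb9 (chr17:32262147-32262206) measured 1.09 in RF8, 0.21 in #620-2, -0.92 in #620-6, -0.10 in #757-1 and 0.30 in #757-2. It too was highest in RF8 and lowest in #620-6, with a 4.04-fold range. Psmb10 (chr8:104534632-104534691) measured 5.82 in RF8, 3.91 in #620-2, 3.49 in #620-6, 4.54 in #757-1 and 4.81 in #757-2, a 5.02-fold range. In all 3 genes the wild-type line #620-2 lay within the range of the knock-in lines and RF8 lay above it.

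Across all probes, limma's test between the genotypes called 1 of 28972 (0.00345%) at an adjusted p under 0.05 and more than 2-fold, the probe of Ubd, and since Ubd was chosen on this contrast nothing is read from that call. In 11 of 14 alternative fits no probe of the array was called, so a count of 0 says little of the members here. Of the 12 probes of the 8 other genes, none was called, with adjusted p from 0.523 to 0.971. One of them, for Tap1, had an unadjusted p under 0.05, as did 7.6% of all probes. The methods' t-test called no probe of the array after adjustment and, of the 12, had 1 at an unadjusted p under 0.05. The log2 fold change, knock-in minus wild type, was -0.85 ± 1.39 (SE) for Psmb8, -0.89 ± 0.48 for Psmb9 and -0.59 ± 0.72 for Psmb10. With the slide as a block, which sets #620-6 against the wild-type lines of its own slide, these values were -2.69, -1.57 and -1.38. Without RF8 they were 0.78, -0.45 and 0.37, so the sign turned for Psmb8 and Psmb10. The sign for Psmb8 also turned without #620-6, at 0.07.

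**Figure D2:**
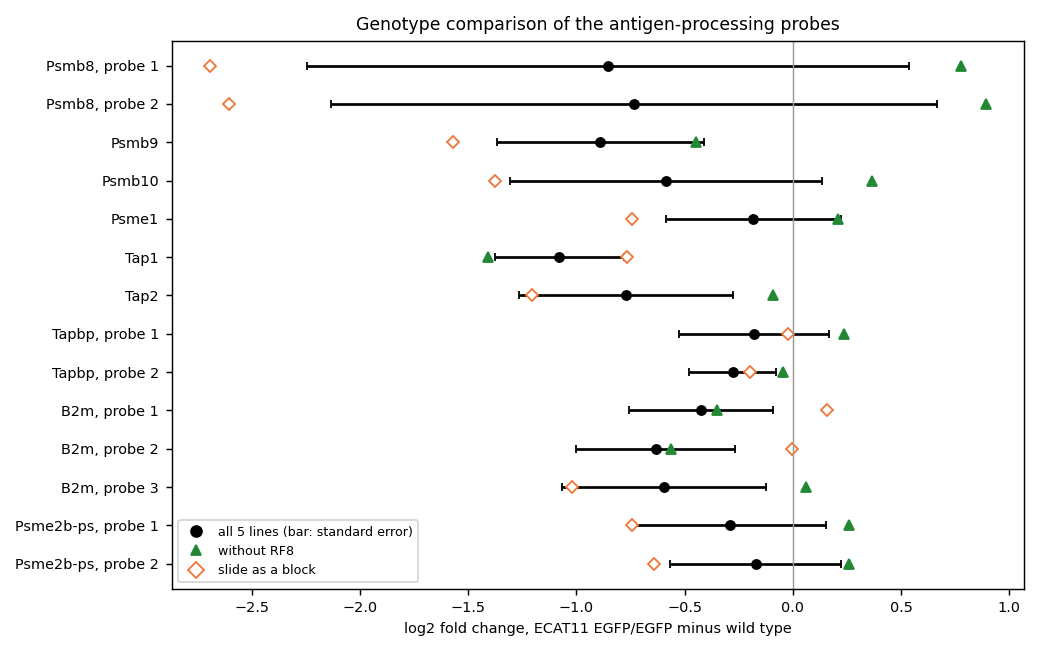
Fitted log2 fold change, ECAT11 EGFP/EGFP minus wild type (x axis), of each probe other than that of Ubd (y axis), over all 5 lines (black, with bars for the standard error), without RF8 (green triangles) and with the slide as a block (open diamonds). The Psmb8 value moves from -0.85 to 0.78 without RF8 and to -2.69 with the block.

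The standard counterparts had narrower ranges. Psmb5 measured 5.18 in RF8, 4.87 in #620-2, 4.81 in #620-6, 5.08 in #757-1 and 5.04 in #757-2. Psmb6 measured 6.86, 6.37, 6.72, 6.73 and 6.88 and Psmb7 4.08, 3.995, 4.09, 4.26 and 4.15, in the same order of lines. The highest and the lowest line differed by 0.38 for Psmb5, 0.51 for Psmb6 and 0.27 for Psmb7 on the log2 scale, against 4.32 for Psmb8, 2.01 for Psmb9 and 2.33 for Psmb10. Across 40 genes of the standard proteasome, its assembly and its other activators, this difference had a median of 0.26 and a maximum of 0.79, for Psme4, which encodes the PA200 activator. Over all 28898 probes its median was 0.77. Of the 60 probes of these genes, none was called by limma, beside 0.00345% of all probes. None had an unadjusted p under 0.05, beside 7.6% of all probes. The largest fold changes on the list were those of Psme4, at 0.44 ± 0.23 (SE), Psme3, a subunit of a nuclear activator, at 0.21 ± 0.17, and Psmg2, an assembly chaperone, at 0.20 ± 0.17.

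**Figure D3:**
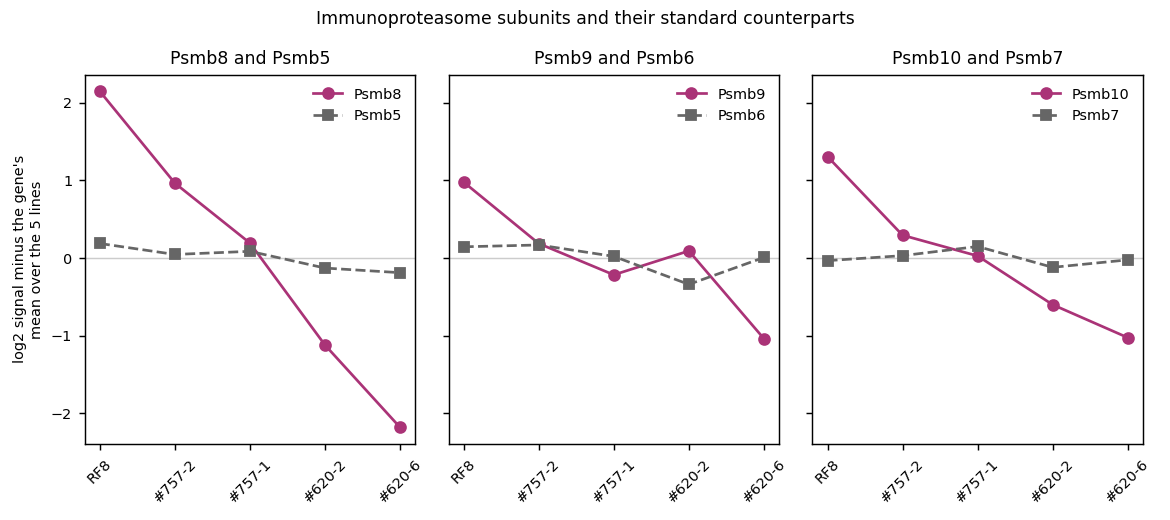
Log2 signal minus the mean of the gene over the 5 lines (y axis) for each immunoproteasome subunit (circles, solid line) and its standard counterpart (squares, dashed line), with the lines (x axis) in the order of their Psmb8 level. The immunoproteasome subunits span 2.01 to 4.32 on the log2 scale and their counterparts 0.27 to 0.51.

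The PA28 activator had a smaller range with the same high and low lines. Psme1 (chr14:50448660-50448719) measured 4.46 in RF8, 3.68 in #620-2, 3.33 in #620-6, 4.06 in #757-1 and 4.28 in #757-2. RF8 and #757-2 were 0.18 apart, less than the SD of 0.50 among the knock-in lines. The log2 fold change of Psme1 was -0.18 ± 0.40 (SE), and 0.21 without RF8. No probe had the name Psme2. A pair of probes named Psme2b-ps, at chr14:50455438-50455635 and chr14:50454846-50454905, list accessions of Psme2 as well, so Psme2 and this near-identical copy could not be separated. The first measured 5.12, 4.02, 3.83, 4.30 and 4.72 in RF8, #620-2, #620-6, #757-1 and #757-2. The second measured 5.53, 4.67, 4.46, 4.97 and 5.35. Both ranked the lines as Psme1 did, and their log2 fold changes were -0.29 and -0.17.

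Psmb8, Psmb10 and Psme1 shared an order of lines, with RF8 highest, then #757-2, then #757-1, and both #620 lines lowest. This order was chosen after the values had been seen. It held in 3 of the 8 genes other than Ubd and in 4.11% of all probes. RF8 was the highest line in 6 of the 8 genes, the others being Tap1 and B2m, and in 25.6% of all probes. The line #620-6 was the lowest in 5 of the 8 genes (Psmb8, Psmb9, Psmb10, Psme1 and Tap2) and in 25% of all probes. The median of RF8 minus the mean of the other lines was 0.94 over the 8 genes and 0.02 over all probes. The order sets the 3 lines labelled male above the 2 labelled female, and sex label and clone cannot be told apart with so few lines. The summed fibroblast markers were also highest in RF8 but lower in the #757 lines than in the #620 lines. Single markers were split, with Thy1, Col3a1 and Lox highest in the #620 lines. The part of fibroblast markers in these levels was not tested.

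The peptide transporters were dim, and neither followed Ubd. Tap1 (chr17:32273751-32273810) measured -3.55 in RF8, -2.90 in #620-2, -3.99 in #620-6, -4.34 in #757-1 and -4.58 in #757-2. It was well above background in the 3 lines of slide 1 and in neither line of slide 2. Its groups did not overlap, with the knock-in lines lower, the opposite direction to Ubd. Tap1 was the only such gene of the 8, and 12.1% of all probes had knock-in lines lower without overlap. The log2 fold change was -1.08 ± 0.30 (SE), and limma's adjusted p was 0.523. It rests on knock-in values of which 2 were not well above background, and was -0.43 with normexp background correction. Both lines of slide 2 lay below all lines of slide 1 in 2 of the 8 genes, Tap1 and B2m, and in 15.6% of all probes. For these genes slide 2 and the #757 lines cannot be told apart. Within slide 1 the fold change of Tap1 was -0.77.

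Tap2, whose probe position spans chr17:32294682-32295269, measured -2.50 in RF8, -3.86 in #620-2, -4.39 in #620-6, -3.90 in #757-1 and -3.57 in #757-2. RF8 was 1.07 above the next line, and the genotypes of the other lines overlapped. Its log2 fold change was -0.77 ± 0.50 (SE), -0.09 without RF8 and -0.34 with normexp. Tapbp had 2 probes. The brighter one (chr17:32007107-32007166) measured 2.35 in RF8, 1.51 in #620-2, 1.90 in #620-6, 1.37 in #757-1 and 1.97 in #757-2, and its groups overlapped. The dimmer one (chr17:32004181-32004240) measured -1.28, -1.74, -1.71, -1.86 and -1.80 in the same order of lines. Their log2 fold changes were -0.18 ± 0.35 (SE) and -0.28 ± 0.20, and the former was 0.24 without RF8.

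B2m was measured by 3 probes. The brightest (chr2:121893518-121893577) measured 1.81 in RF8, 1.66 in #620-2, 1.89 in #620-6, 1.02 in #757-1 and 1.02 in #757-2. Both #757 lines, which made up slide 2, lay below the other lines, and slide and clone cannot be told apart. The lines did not part by genotype, since #620-6 was the highest of the 5. The next probe (chr2:121893642-121893698) was printed in 10 spots per array and gave 0.57, 0.43, 0.50, -0.29 and -0.60 in the same order of lines, with an SD between spots of 0.03 to 0.14. This SD is technical and does not cover the spread between clones. The third, to a cDNA clone (chr2:121889716-121889775), was dim and ranked the lines otherwise, at -2.56, -3.87, -4.24, -3.59 and -3.61, with RF8 highest. The log2 fold change of the brightest probe was -0.42 ± 0.33 (SE), and 0.16 with the slide as a block.

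Over the 8 genes other than Ubd, with the brightest probe of each, the log2 fold changes ranged from -1.08 to -0.18 with a median of -0.68, beside a median of -0.02 over all probes. Without RF8 the median was 0.059. Between the lines that share the number 620, #620-6 minus #620-2 had a median of -0.47 over the 8 genes and -0.02 over all probes. None of these genes was higher in all knock-in lines than in both wild-type lines. The share of all probes that were so was not counted, so nothing is read from this about the 8 genes.

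The likeness of a line profile to that of Ubd was measured as the root mean square difference over the 5 lines between log2 values centred on the mean of the probe, with values under the lowest signal well above background raised to it. Over 28897 probes the median of this distance was 3.35, and a probe with equal values in all lines would lie at 3.38. All 12 member probes lay farther than such a flat profile, between 3.47, for Psme1 (rank 22429), and 4.01, for Psmb8 (rank 28686), so none was among the 100 nearest probes. The distance is not scaled, so it weighs the size of a change as well as its pattern. A probe with a small range, such as 1.135 for Psme1 or 0.976 for the brighter Tapbp probe, could not be among the 100 nearest whatever its pattern. The nearest were both probes of BC020150, at 0.92 and 1.12, followed by probes of AK035950, Pgpep1l and Deptor, an inhibitor of mTOR. Deptor measured -2.09 in RF8, -1.57 in #620-2, 1.04 in #620-6, 2.21 in #757-1 and 1.28 in #757-2. These probes were chosen for their likeness, which is no test of it.

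**Figure D4:**
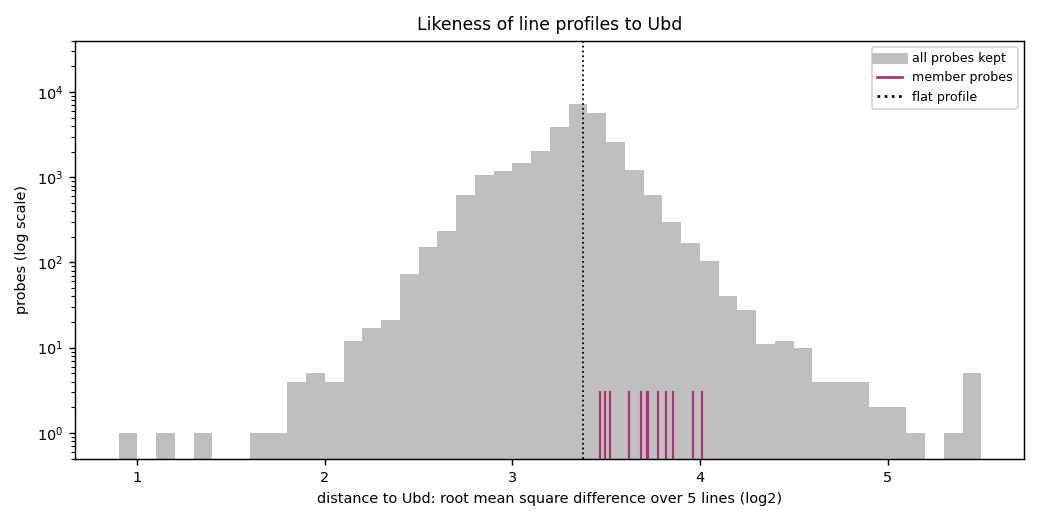
Number of probes (y axis, log scale) by distance of their line profile to that of Ubd (x axis, root mean square difference over 5 lines on the log2 scale), with the 12 member probes as short lines and a flat profile as the dotted line at 3.38. The members lie between 3.47 and 4.01, all beyond the flat profile.

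Other genes of class I presentation were chosen as a list of heavy chains and peptide-loading factors. Of 28 genes, 21 had a kept probe. Of their 41 probes 0 were called by limma, beside 0.00345% of all probes, so this count says little of the list. An unadjusted p under 0.05 was found for 1 probe with knock-in higher (H2-T3, well above background on 1 array). It was found for 2 with knock-in lower (H2-Q8 and a dimmer probe of H2-Q10), and for 7.6% of all probes in either direction. A brighter probe of H2-Q10 went the other way, at a log2 fold change of 0.41, against -0.62 for the dimmer one. The median log2 fold change over the 21 genes was 0.04. RF8 was the highest line in 10 of the 21. The heavy chain H2-K1 measured 3.65 in RF8, 2.78 in #620-2, 2.51 in #620-6, 2.78 in #757-1 and 3.13 in #757-2, and H2-D1 measured 1.88, 0.99, 0.91, 0.98 and 1.23. Erap1, the aminopeptidase that trims peptides for class I, measured 0.07, -1.74, -1.78, -1.01 and -0.53 and had the order of Psmb8. H2-K1, H2-D1 and Erap1 were picked after their values had been seen.

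By the rule of largest fold change, the list gave H2-Bl, H2-Q8 and Tapbpl. H2-Bl measured -0.10 in RF8, -0.01 in #620-2, 0.34 in #620-6, -3.64 in #757-1 and -3.29 in #757-2. Here too both #757 lines lay lowest, and slide 2 and the #757 lines cannot be told apart. H2-Q8 measured -0.29, -0.76, -2.36, -1.39 and -1.37, with a log2 fold change of -1.18 ± 0.39 (SE) and an adjusted p from limma of 0.594. Tapbpl, a relative of tapasin, measured -0.50, -1.55, -2.43, -2.01 and -1.45, with a log2 fold change of -0.94 ± 0.45. Class I heavy chains are near-identical, so the signal of 1 probe may come from several of these genes.

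Among the regulators that link interferon gamma, TNF and class I genes, 26 of 27 had a kept probe. Of their 46 probes 0 were called by limma, beside 0.00345% of all probes, so this count says little of the list. The median log2 fold change was -0.07. An unadjusted p under 0.05 was found for 1 probe with knock-in higher, a dim probe of Nfkb1, and for 5 with knock-in lower, among them those of Tnfrsf1b and Rfxap. Of all probes, 7.6% had such a p, in either direction. RF8 was the highest line in 13 of the 26 genes. Irf1, the interferon-induced activator of class I and immunoproteasome genes, measured 4.80 in RF8, 3.31 in #620-2, 3.64 in #620-6, 4.09 in #757-1 and 4.50 in #757-2, again with RF8 and #757-2 on top. It was picked after its values had been seen, and its log2 fold change was 0.02 ± 0.53 (SE).

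By the rule, the list gave Tnfrsf1b, Irf8 and Rfxap. Tnfrsf1b, a TNF receptor, measured -1.39 in RF8, -1.61 in #620-2, -2.71 in #620-6, -2.58 in #757-1 and -2.14 in #757-2. Its groups did not overlap, with the knock-in lines lower, at a log2 fold change of -0.97 ± 0.23 (SE) and an adjusted p from limma of 0.485. Irf8, an interferon-responsive transcription factor, measured -1.68, -2.15, -3.76, -1.73 and -1.88, lowest in #620-6. Rfxap, a subunit of the RFX complex that binds promoters of class I and class II genes, measured 2.10, 1.78, 1.37, 1.36 and 1.48, with an adjusted p of 0.591.

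The ubiquitin-like modifiers and the enzymes of FAT10 formed a further list, of which all 24 genes had a kept probe. Of the 41 probes 0 were called by limma, beside 0.00345% of all probes, so this count says little of the list. Only 1 of the 41 probes, that of Atg12, had an unadjusted p under 0.05, with knock-in higher, beside 7.6% of all probes in either direction. The median log2 fold change was 0.02, and RF8 was the highest line in 4 of the 24. Uba6, the enzyme that activates FAT10, measured 1.90 in RF8, 1.13 in #620-2, 1.48 in #620-6, 1.72 in #757-1 and 1.75 in #757-2. Ube2z, its conjugating enzyme, measured 2.73, 2.24, 2.74, 2.62 and 2.85. Nub1, which binds FAT10 and speeds its breakdown, measured 1.06, 1.10, 1.15, 1.03 and 1.19. All of them were well above background in both genotypes, with log2 fold changes of 0.13 ± 0.28 (SE), 0.25 ± 0.21 and 0.04 ± 0.15.

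By the rule, this list gave Isg15, Atg12 and Sqstm1. Isg15, an interferon-induced modifier like FAT10, measured -0.08 in RF8, -3.59 in #620-2, -3.41 in #620-6, -2.60 in #757-1 and -1.86 in #757-2. The files place this probe on chromosome 17, which is not where Isg15 lies, so what it measures is uncertain. The probe too ranked RF8, #757-2 and #757-1 in this order above both #620 lines, and its distance to Ubd had rank 28576. The order held in 3 of the 24 genes of the list (Sumo2, Uba6 and Isg15) and in 4.11% of all probes. Atg12, a modifier of autophagy, measured 2.92, 2.72, 3.43, 3.22 and 3.40, at a log2 fold change of 0.53 ± 0.16 (SE) and an adjusted p from limma of 0.576. Sqstm1, a receptor of autophagy, measured 4.61, 4.37, 5.11, 4.75 and 4.91, at 0.43 ± 0.19.

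Ubd lies in the distal part of the MHC on chromosome 17, and Psmb8, Psmb9, Tap1, Tap2 and Tapbp lie 3.05 to 3.34 Mb before it. Within 1 Mb of the Ubd probe were 79 further probes, of which 44 were not well above background on any array and 35 were kept. Limma called 0 of the 35, beside 0.00345% of all probes. Of the 35, 2, of Olfr94 and Mog, had an unadjusted p under 0.05, with knock-in higher. Of all probes, 7.6% had such a p, in either direction. The median log2 fold change over the 26 genes was -0.06. With the brightest probe of each gene, Ppp1r11 and Rpp21 had the largest fold changes among named genes well above background in all lines, at 0.36 ± 0.22 (SE) and 0.31 ± 0.14. A dimmer probe of Gabbr1 had -0.36.

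The nearest gene on one side was the olfactory receptor Olfr94, whose probe lies 1.17 kb from that of Ubd. It measured -8.29 in RF8, -7.56 in #620-2, -5.35 in #620-6, -5.28 in #757-1 and -6.51 in #757-2. It was well above background in #620-6 alone, and the knock-in values were all above the wild-type values, with an adjusted p from limma of 0.455. The lines of slide 2 had a higher background, and its part in the Olfr94 values was not tested. A probe of the next receptor, Olfr95, was not well above background in any line. It measured -6.56 in RF8, -7.98 in #620-2, -6.96 in #620-6, -5.98 in #757-1 and -5.43 in #757-2. On the other side, Olfr93, at 45.4 kb, was not well above background in any line. The closest probes bright in all lines were those of Gabbr1, at 122.5 kb, with -1.37 in RF8, -0.17 in #620-2, -0.33 in #620-6, -0.63 in #757-1 and -0.70 in #757-2, and of the class I gene H2-M3, at 79 kb, with -0.12, -1.30, -1.22, -0.81 and -0.34. Neither separated the genotypes. Over the 220 probes of the 5 lists, counted once each, the methods' t-test called 0 after adjustment, as it did over the whole array. It had 14 of them at an unadjusted p under 0.05, against 12 by limma. Limma had 7.6% of all probes at that level.

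**Figure D5:**
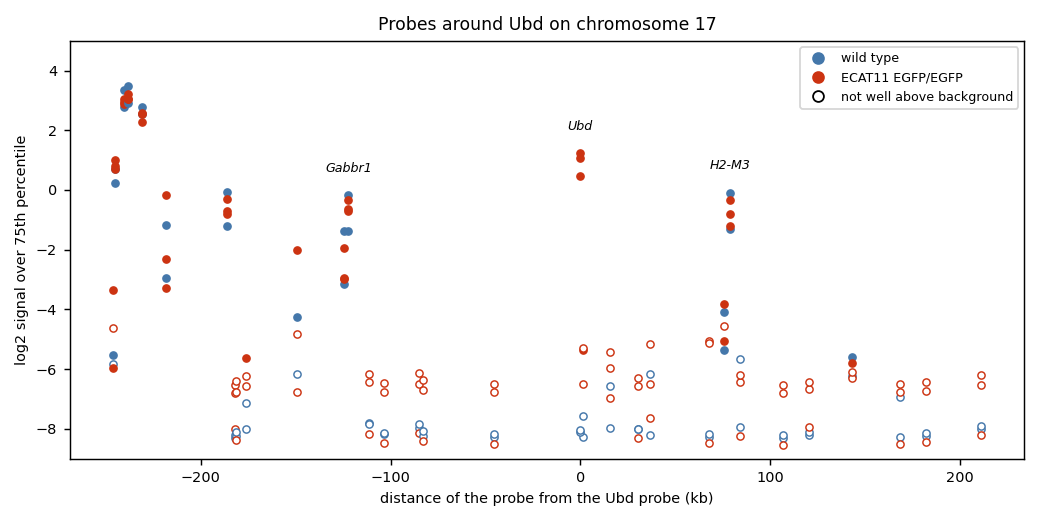
Log2 signal over the 75th percentile of the array (y axis) of the probes on chromosome 17 by distance from the Ubd probe (x axis, kb), with 1 point per line, blue for wild type and red for ECAT11 EGFP/EGFP, open where not well above background. The knock-in values of Ubd, between 0.46 and 1.25, stand away from its wild-type values, while the lines of Gabbr1 and H2-M3 are mixed.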

How the data were processed

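Gene expression of the 5 ESC lines was measured on Agilent mouse arrays with Cy3-labelled RNA, 1 array per line. The authors scanned and extracted the arrays (Feature Extraction 9.5.3.1, per the file headers) and deposited for each spot a background-corrected intensity, not normalized between arrays. The authors also deposited log2 values centred per probe, used here as an alternative. The 1639 control spots were left out, 0.335% of the rest were set missing as non-uniform or outliers, each array was divided by its 75th percentile as in the study's methods, and spots of a probe were averaged. That percentile was an intensity of 687.5 to 794.4. No spot was saturated. A probe was kept if it was flagged Present on 1 array or more. Of the probes, 22951 were named by accession and 9768 by symbol through the RefSeq table (GRCm38.p6), and the others as in the files.

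The genotype comparison used limma 3.58.1 (R 4.3.3) over all kept probes, with Benjamini-Hochberg adjustment, and called at an adjusted p under 0.05 and more than 2-fold. P-values measure the spread between lines. The code was tested on simulated data. A gene of the regulator list is counted but not reported by name here. The members and lists were chosen with earlier results of these data known. Named genes were all members, the 3 genes of each list with the largest fold change (brightest probe, well above background on all arrays), the 5 probes nearest to Ubd, its neighbours and the standard subunits. Alternatives were normexp (offset 50), quantile normalization, the deposited table, other filters, marked spots kept, a block for the slide, a covariate for the sex label, the mean over probes of a gene, no floor in the distance, the methods' t-test, and leaving out each line. Figures used matplotlib.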

Additional observations from a re-analysis of the deposited data

How the results depend on the processing

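No antigen-processing probe other than that of Ubd and no probe of the lists was called in any of 14 alternatives each. In 11 of these no probe of the array was called at all, that of Ubd included, so a count of 0 there says nothing about the members. The 11 included normexp, quantile normalization, no filter, the slide block, the sex covariate, the t-test and leaving out any line. No member entered the 100 probes nearest to Ubd in any of 12. The distance was unscaled in these too, so for members with small ranges this count says little of their pattern. The bound on Ubd was 21.9-fold with normexp, whose offset raises dim signals, against 117-fold, and between 104.6- and 137.2-fold when a line was left out. The median log2 fold change of the 8 genes was between -1.04 and 0.059 (without RF8) when a line was left out, and stayed below 0 in the other alternatives. Without RF8 the log2 fold change turned to 0.78 for Psmb8, 0.37 for Psmb10, 0.21 for Psme1 and 0.24 for Tapbp. Without #620-6 it turned to 0.07 for Psmb8 and 0.10 for Psme1, and without #757-1 to 0.01 for Tapbp. With the slide as a block it turned to 0.16 for B2m. When lines were left out in turn, the values ranged from -2.49 to 0.78 for Psmb8, -1.54 to 0.37 for Psmb10, -0.57 to 0.21 for Psme1 and -0.60 to 0.24 for Tapbp. The cause of these turns was not tested. Psmb9, Tap1 and Tap2 stayed below 0 in all 14 alternatives, though normexp moved Tap1 from -1.08 to -0.43 and Tap2 from -0.77 to -0.34. Slide 2 had the higher background, and neither Tap1 nor Olfr94 was well above it there. No paired analysis was possible because the replicate numbers were given in accession order and pair no lines, and of the shared line numbers only 620 holds both genotypes.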
